A study of Mus musculus with 4 samples.

Results

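The genes described here are 10 genes of lipid uptake, storage and burning, most of them known targets of the peroxisome proliferator-activated receptors (PPARs), in immune cells of skin wounds. They were taken by symbol from the 31053 genes counted, and all 10 were found: Angptl4, Lpl, Cd36, Fabp4, Fabp5, Plin2, Hilpda, Cpt1a, Pparg and Ppard. Live CD45+ cells were sorted from 3 mm excisional wounds of dorsal skin and profiled by droplet RNA sequencing, which gave 4 libraries with a single one per genotype and day. The groups were wild-type (Angptl4+/+) and Angptl4 knockout (Angptl4-/-) male mice, each sampled on day 1 and on day 5 after wounding (1 and 5 dpw). The wild-type mice and the knockout line UNQ171 came from different suppliers, so any difference between those colonies is part of the genotype comparison. Both genotypes carry the strain label C57BL6/J and were 8 weeks old, and the number of mice behind a library is not given in the sources used here. With 1 library in a group no difference was tested, and the genotype or day cannot be told apart from the library.

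Lipoprotein lipase (Lpl) splits the triglycerides of circulating lipoproteins, and Angptl4 is a secreted inhibitor of that enzyme. Cd36 brings the released fatty acids into the cell, the binding proteins Fabp4 and Fabp5 carry them, and PPARγ (Pparg) and PPARδ (Ppard) sense them in the nucleus and raise the expression of many genes that handle lipid. Plin2 coats lipid droplets, Hilpda, a gene also induced by low oxygen, blocks the release of fatty acids from droplets, and Cpt1a admits fatty acids to mitochondria for oxidation. Macrophages and neutrophils of a wound meet lipid from dying cells, and PPARγ is known for its part in the alternative activation of macrophages.

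All 10 are protein-coding genes, placed here on GRCm38 by the GENCODE vM21 annotation. Angptl4 (ENSMUSG00000002289) lies at chr17:33773750-33781830 on the minus strand and Ppard (ENSMUSG00000002250) at chr17:28232700-28301474 on the plus strand, with 5.47 Mb between them. Lpl (ENSMUSG00000015568) lies at chr8:68880491-68907448, Cd36 (ENSMUSG00000002944) at chr5:17781690-17888801, Cpt1a (ENSMUSG00000024900) at chr19:3322334-3385733 and Plin2 (ENSMUSG00000028494) at chr4:86648386-86670060. Fabp4 (ENSMUSG00000062515) and Fabp5 (ENSMUSG00000027533) lie on the same chromosome, at chr3:10204088-10208576 and chr3:10012548-10016607, as do Hilpda (ENSMUSG00000043421) and Pparg (ENSMUSG00000000440), at chr6:29272488-29275446 and chr6:115360951-115490399.

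The libraries held 26981596 to 32962595 unique molecular identifiers (UMIs, each counting 1 captured RNA molecule) and 4738 to 5346 cells that passed the filter. The median was 3735.5 to 4975.5 UMIs per cell, lower at 5 than at 1 dpw in both genotypes. The cells formed 14 clusters, and marker lists joined these into 6 classes. In the macrophage-like class the median went the other way and was higher at 5 than at 1 dpw. It was 6846 and 8335 UMIs per cell at 1 and 5 dpw in wild-type wounds, and 5894 and 11536 in knockout wounds. All 8 neutrophil, 6 monocyte, 8 macrophage and 8 dendritic cell markers had their highest mean over the 4 libraries in the class that bears their name. The same markers named the classes and were not left out of the clustering. In single libraries Adgre1 (wild-type, 1 dpw) and Xcr1 (wild-type, 1 dpw) were highest in monocyte-like cells and Treml4 (knockout, 1 dpw) in neutrophil-like cells. A mast cell and a red cell, 2 cells in all, were set apart. The fat cell genes Adipoq, Cfd and Lep had 7, 12 and 1 UMIs over the 4 libraries and Retn had 879, with 125 to 294 in each. Plin1 and Cidec, which mark fat cells, had 0. Gpihbp1, the endothelial anchor of Lpl, had 1. Of the other endothelial genes looked at, Cldn5 had 2, but Pecam1 had 2667, Kdr 1013 and Cdh5 136. The cells these came from were not tested. Of the cell barcodes, 48 occurred in more than 1 library.

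Levels are given as CPM, the UMIs of a gene in a class for every 1000000 UMIs counted there, with an exact Poisson 95% interval where one is printed. Ratios of 2 levels are log2 values, and their 95% intervals come from the exact binomial distribution of 1 count given the sum of both. These intervals cover counting error only. A gene was compared where the 2 sums together held at least 100 UMIs, and it was called apart where the levels differed at least 2-fold.

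Angptl4 was counted first, since it is the gene that was removed. The wild-type libraries held 47 of its UMIs at 1 dpw and 78 at 5 dpw, and both knockout libraries held 0. With each count of 0 set to a floor of 3 UMIs, its level without the gene was lower by at least 13.1-fold on day 1 and by at least 23.7-fold on day 5. Macrophage-like cells held most of the wild-type UMIs, with 33 at 1 dpw (3.68 CPM, 2.54 to 5.17) and 61 at 5 dpw (4.70 CPM, 3.59 to 6.03). Neutrophil-like cells had 0.508 CPM at 1 dpw and 0.692 CPM at 5 dpw, and macrophage-like cells were 6.77 to 7.26 times as high. NK cell/T cell-like cells had 1 UMI in 36 cells at 1 dpw (3.60 CPM) and 9 UMIs in 9 of 227 cells at 5 dpw (3.79 CPM, 1.73 to 7.19), which is 97.6% and 80.6% of the macrophage-like level. Few cells showed the transcript: 27 of 1152 macrophage-like cells at 1 dpw (2.34%, exact binomial interval 1.55 to 3.39) and 45 of 1543 at 5 dpw (2.92%, 2.14 to 3.88). At this depth the gene could be compared in no class, because the macrophage-like sums stayed under 100 UMIs in each comparison.

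The remaining 9 genes fell into distinct places among the cell classes. Lpl and Cd36 were macrophage genes, Fabp5 was highest by far in dendritic cell-like cells, and Plin2 and Hilpda were high in both neutrophil-like and macrophage-like cells. Across all genes tested, 46.6% were at least 2-fold apart in the same direction in all 4 libraries between macrophage-like and neutrophil-like cells, and 3 of 7 tested members were, all higher in macrophage-like cells. Between monocyte-like and neutrophil-like cells 39.7% of all genes were apart, and 2 of 5 tested members, Plin2 and Hilpda, were both lower in monocyte-like cells. For dendritic cell-like against neutrophil-like cells the background was 42% and the members apart were 3 of 5, with Fabp5 higher and Plin2 and Hilpda lower. With so few members tested, nothing is read from these shares against the background.

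**Figure D1:**
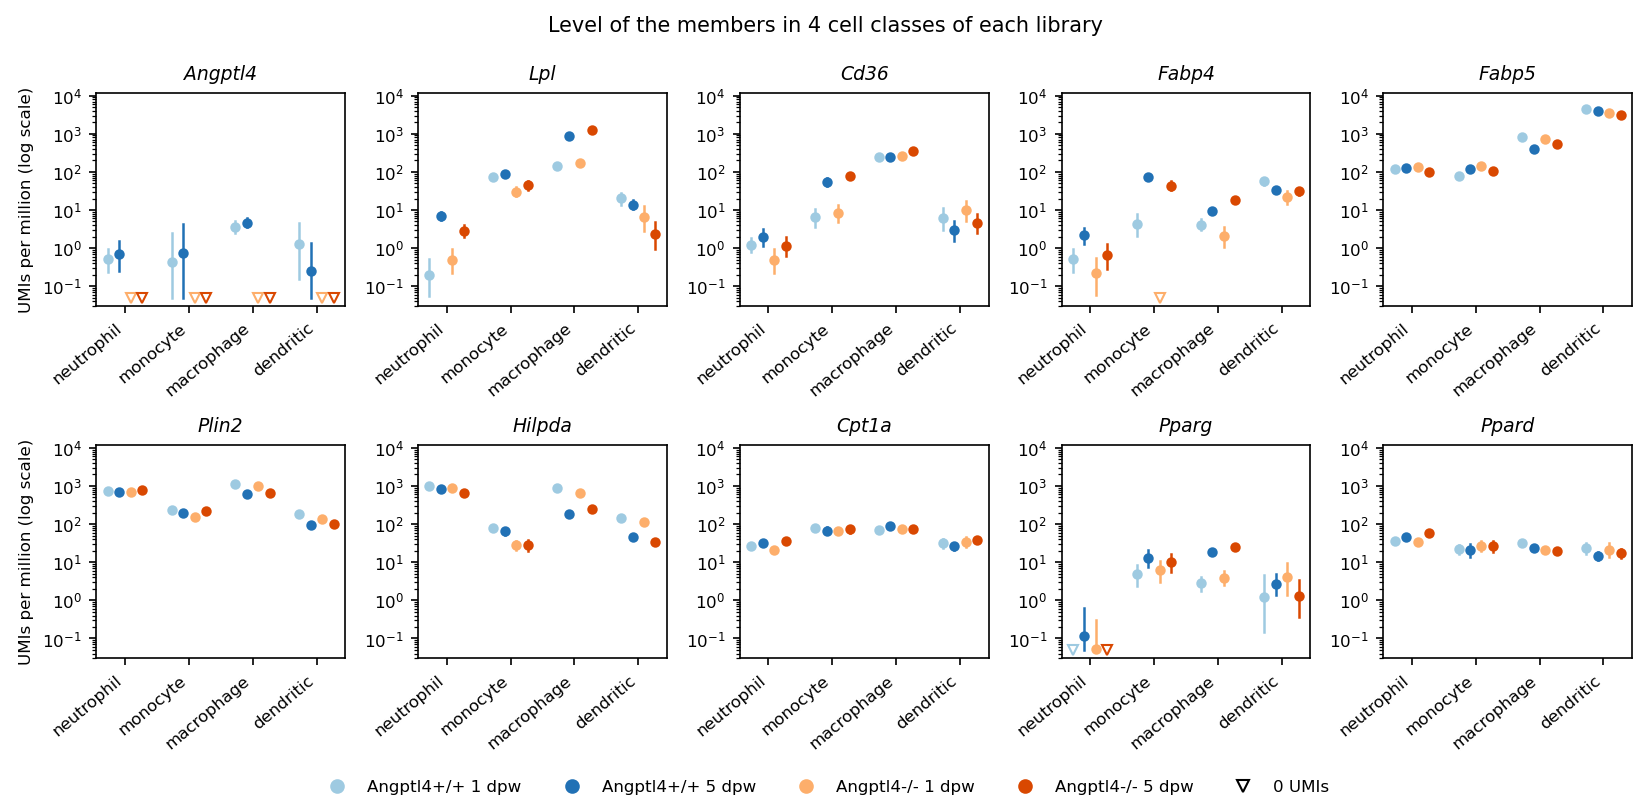
Level of each of the 10 genes (CPM of the class, log axis) in 4 cell classes, with 1 point per library and vertical lines for the exact Poisson 95% interval. Triangles mark a count of 0, as for Angptl4 in both knockout libraries. Lpl in macrophage-like cells sits near 142 and 167 at 1 dpw and near 870 and 1231 at 5 dpw.

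Lpl had 142 CPM in macrophage-like cells of wild-type wounds at 1 dpw and 870 CPM at 5 dpw. In knockout wounds it had 167 CPM at 1 dpw and 1231 CPM at 5 dpw. Both 5 dpw libraries were above both 1 dpw libraries. Neutrophil-like cells had 0.203, 7.04, 0.491 and 2.86 CPM in wild-type wounds at 1 and 5 dpw and knockout wounds at 1 and 5 dpw, which is 0.143% to 0.809% of the macrophage-like level in the same library. Among the 8 macrophage markers, Adgre1 stood at 9.39% to 11.9% of its macrophage-like level in neutrophil-like cells, and the other 7 at 0.104% to 0.708%. The part of macrophage transcripts in the neutrophil-like Lpl was not tested. Monocyte-like cells were intermediate, with 75.2 and 88.9 CPM in wild-type wounds at 1 and 5 dpw and 30.3 and 44.5 CPM in knockout wounds. In NK cell/T cell-like cells of knockout wounds at 1 dpw, Lpl reached 467 CPM, but 2 of 36 cells held all 135 UMIs.

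Cd36 had 252.5 and 248.6 CPM in macrophage-like cells of wild-type wounds at 1 and 5 dpw, and 263 and 345 CPM in knockout wounds. Within a library the macrophage-like level was 127 to 537.5 times the neutrophil-like level. In monocyte-like cells Cd36 had 6.60 CPM at 1 dpw and 54.4 CPM at 5 dpw in wild-type wounds, and 8.41 and 77.0 CPM in knockout wounds. Cd36 is also a platelet gene, and the platelet markers moved between libraries: Ppbp, Gp9 and Itga2b summed to 85.1 CPM in wild-type wounds at 1 dpw and 5.66 CPM at 5 dpw, and to 35.6 and 18.0 CPM in knockout wounds. Nearly all of these were Ppbp, whereas Gp9 had 4 UMIs over all libraries, and their part in the Cd36 values was not tested.

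Pparg, the receptor that binds fatty acids and drives the uptake programme of macrophages, was sparse, with 25 UMIs in macrophage-like cells of wild-type wounds at 1 dpw and 245 at 5 dpw. The levels were 2.79 CPM (1.81 to 4.12) and 18.9 CPM (16.6 to 21.4). In knockout wounds Pparg had 23 and 191 UMIs, or 3.95 CPM (2.50 to 5.93) and 25.0 CPM (21.6 to 28.8). Neutrophil-like cells held 2 Pparg UMIs over the 4 libraries. Ppard was spread more evenly and lay at 33.8 to 57.3 CPM in neutrophil-like cells and at 19.8 to 31.9 CPM in macrophage-like cells. It was lower in macrophage-like than in neutrophil-like cells in each library, by 0.20 to 1.54 on the log2 scale.

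Cpt1a, the gate of mitochondrial fatty acid oxidation, ranged from 70.3 to 89.0 CPM in macrophage-like cells, from 65.6 to 77.0 CPM in monocyte-like cells and from 20.4 to 37.0 CPM in neutrophil-like cells. The macrophage-like level was above the neutrophil-like level in each library by 1.00 to 1.84 on the log2 scale, with the lowest library just under the 2-fold threshold. Of 21 further genes of fatty acid oxidation, 14 could be compared and 12 were at least 2-fold higher in macrophage-like than in neutrophil-like cells in all 4 libraries, with none lower and a median log2 ratio of 2.13, against 46.6% apart and a median of 1.04 over all genes tested. The corresponding counts were 8 of 11 in monocyte-like cells (median 2.10, against 39.7% apart and a median of 0.65 over all genes) and 8 of 11 in dendritic cell-like cells (median 2.32, against 42% and 0.59). Among 19 further genes of droplet storage and release, 2 of 13 were higher and 4 lower in macrophage-like cells (median -0.31). In dendritic cell-like cells 0 of 12 were higher and 5 lower (median -1.51). These shares apart were near the same backgrounds, and nothing is read from them, while both medians lay below those of all genes. By direction, 2742 of all 7074 genes tested were higher and 555 lower in macrophage-like cells. In monocyte-like cells 1528 of 5557 were higher and 677 lower, and in dendritic cell-like cells 1580 of 5668 and 800.

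Between the days, more members were called in macrophage-like cells than in any of the other 3 classes compared. In wild-type wounds 10.7% of all genes were at least 2-fold apart in this class, and among the 9 members tested Lpl, Fabp4 and Pparg were higher at 5 dpw and Fabp5 and Hilpda lower. In knockout wounds 8.04% of all genes were apart, and of 9 members Lpl, Fabp4 and Pparg were again higher and Hilpda lower. Lpl was higher at 5 dpw by 2.61 (2.53 to 2.70) on the log2 scale in wild-type wounds and by 2.88 (2.79 to 2.98) in knockout wounds. The Pparg ratios were 2.76 (2.16 to 3.41) and 2.66 (2.03 to 3.35). Pparg and Fabp4 were compared only because of their 5 dpw counts, so that their passing the count threshold already leaned towards a difference.

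Hilpda went the other way. Its macrophage-like level was 892 CPM at 1 dpw and 179 CPM at 5 dpw in wild-type wounds, and 660.5 and 245.5 CPM in knockout wounds. The log2 ratios were -2.31 (-2.38 to -2.25) and -1.43 (-1.51 to -1.35). Plin2 was also lower at 5 dpw, with 1124 and 603 CPM in wild-type wounds and 975 and 648 CPM in knockout wounds, and with log2 ratios of -0.90 (-0.94 to -0.86) and -0.59 (-0.64 to -0.53) it stayed within 2-fold. Fabp5 fell from 822 to 391 CPM in wild-type wounds and lay at 712 and 538 CPM in knockout wounds. Cpt1a differed by 0.34 (0.20 to 0.48) and 0.02 (-0.17 to 0.20).

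**Figure D2:**
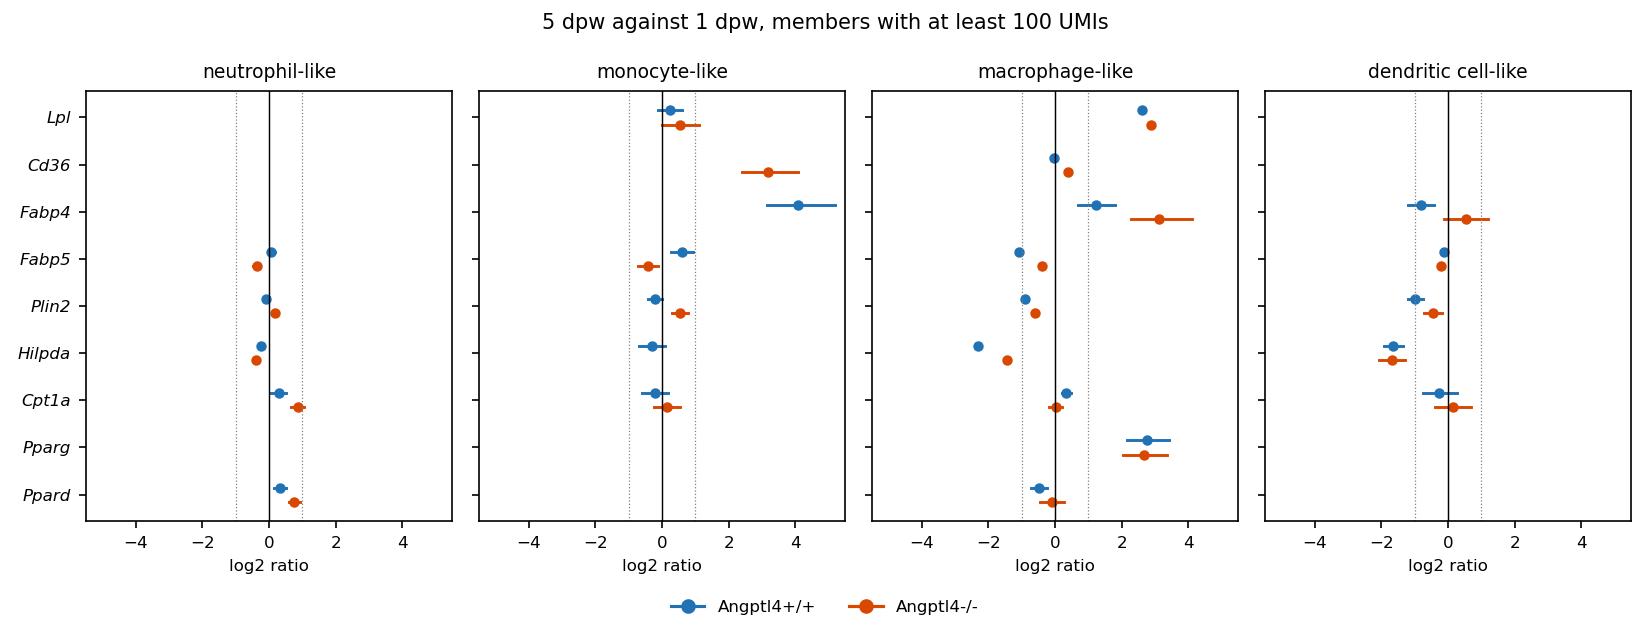
Log2 ratio of the 5 dpw to the 1 dpw library for each gene in 4 cell classes, in wild-type (blue) and knockout wounds (orange), with exact 95% intervals for counting error. Only genes with at least 100 UMIs in the 2 sums are drawn, and dotted lines mark 2-fold. In macrophage-like cells Lpl, Fabp4 and Pparg lie to the right and Hilpda to the left in both genotypes.

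Fabp4 was carried by few cells and its values were fragile. In macrophage-like cells it had 4.13 and 9.62 CPM in wild-type wounds at 1 and 5 dpw and 2.06 and 18.1 CPM in knockout wounds. The 5 cells with most Fabp4 UMIs held 75.7% of the sum in wild-type wounds at 1 dpw, 63.2% at 5 dpw and 77.5% in knockout wounds at 5 dpw. The 5 against 1 dpw ratio of 1.22 in wild-type wounds became -0.72 when each cell was thinned to 1000 UMIs. In monocyte-like cells Fabp4 had 10 UMIs at 1 dpw and 97 at 5 dpw in wild-type wounds, and 0 and 62 in knockout wounds. This was higher at 5 dpw by 4.08 (3.14 to 5.18) on the log2 scale in wild-type wounds, and in knockout wounds, where the 62 UMIs fell short of the count threshold, by at least 26.0-fold against a floor of 3 UMIs. Cd36 in the same cells was higher at 5 dpw by 3.19 (2.41 to 4.08) in knockout wounds, and by 3.04 (2.23 to 3.95) in wild-type wounds, where its 86 UMIs fell short of the count threshold. Over all genes tested in monocyte-like cells, 3.92% were 2-fold apart in wild-type wounds and 3.34% in knockout wounds, and 1 member was called in each, of 6 and 5 tested. The called members, Fabp4 in wild-type and Cd36 in knockout wounds, reached the count threshold mainly through their 5 dpw counts. Passing it therefore already leaned towards a difference.

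In dendritic cell-like cells the single member called between the days was Hilpda in both genotypes, of 5 tested in each, against backgrounds of 6.26% in wild-type and 3.53% in knockout wounds. Its level was 144 CPM at 1 dpw and 46.1 CPM at 5 dpw in wild-type wounds, and 110.1 and 34.3 CPM in knockout wounds. The log2 ratios were -1.64 (-1.93 to -1.36) and -1.68 (-2.07 to -1.30). The 133 UMIs of knockout wounds at 1 dpw came to 61.7% from 5 cells, and thinning the cells turned that ratio to 0.17. Dgat1, which makes triglyceride, had 47.1 and 22.5 CPM in wild-type and 45.5 and 19.3 CPM in knockout wounds.

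In neutrophil-like cells no member was 2-fold apart between the days, 0 of 5 tested in either genotype, although 32.6% of all genes were apart in wild-type wounds and 34.6% in knockout wounds. Here the whole scale moved: the median of all genes was 0.66 higher at 5 dpw in wild-type wounds and 0.68 higher in knockout wounds, and the 50 genes with most UMIs took 48.9% of neutrophil-like UMIs at 1 dpw and 38.9% at 5 dpw in wild-type wounds. Plin2 at -0.09 and 0.17 and Hilpda at -0.25 and -0.40 therefore lay below the typical gene. On a scale without those 50 genes, which lowered the medians to 0.40 and 0.39, Plin2 stood at -0.35 and -0.13, so that its direction in knockout wounds flipped, and Hilpda at -0.51 and -0.70. Fabp5 stood at 0.07 and -0.37 and moved to -0.19 and -0.67 on that scale, so that its direction flipped in wild-type wounds. Cpt1a and Ppard had 0.29 and 0.33 in wild-type wounds and 0.86 and 0.76 in knockout wounds, and on the scale without the 50 genes they had 0.03 and 0.07, and 0.56 and 0.46. Among the further genes, on the scale of all UMIs, Acsl1, which activates fatty acids, had 31.6 and 68.0 CPM in wild-type wounds at 1 and 5 dpw and 27.1 and 72.7 CPM in knockout wounds. Pnpla2, the first lipase of droplet breakdown, was higher by 1.23 and 1.52 on the log2 scale. Agpat2, Lipe, Etfb, Acaa2, Rxrb and Med1 were also at least 2-fold higher at 5 dpw in both genotypes on that scale. In full, 3 of 12 droplet genes were higher in wild-type and 5 of 13 in knockout wounds. Oxidation genes gave 4 of 12 and 2 of 12, PPAR partners 2 of 7 in each and uptake genes 1 of 4 in each, with none lower. Of 3 partners of Lpl, 1 was higher in wild-type and 1 lower in knockout wounds. Beside the 32.6% and 34.6% of all genes, nothing is read from these counts. Without the 50 genes, a scale chosen after seeing the data, Agpat2 (1.59 and 1.58), Etfb (1.98 and 2.43), Acaa2 (1.80 and 2.33) and Rxrb (1.45 and 1.65) were still at least 2-fold higher in both. Acsl1 (0.84), Pnpla2 (0.97) and Med1 (0.95) then fell short in wild-type wounds, and Lipe (0.89 and 0.70) in both genotypes.

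The macrophage-like cells were 3 clusters that differed in these genes and in their shares. Cluster 3 was led by Sdc1, Arg1 and Mmp12, cluster 6 by Ccl8, Ms4a7 and the complement genes C1qa, C1qb and C1qc, and cluster 7 by Retnla, Lyz1 and Lpl itself. The cells of cluster 7 had a median of 3289 UMIs against 8030 in cluster 3 and 10719 in cluster 6. Cluster 3 supplied 62.5% of the macrophage-like UMIs in wild-type wounds at 1 dpw and 39.6% at 5 dpw, and 55.1% and 32.2% in knockout wounds. Cluster 6 supplied 35.4% at 5 dpw in wild-type wounds and 44.7% in knockout wounds. The 10 genes were left out of the genes used for clustering.

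Lpl was higher at 5 than at 1 dpw in each of these clusters as well as in the class. The part of the cluster shares in the difference of the class was not tested. Few cells weighed on the 1 dpw values, where 5 cells held 36.9% of the macrophage-like Lpl UMIs in wild-type and 43.0% in knockout wounds. In cluster 3 Lpl had 80.1 and 700.2 CPM in wild-type wounds at 1 and 5 dpw and 105 and 412 CPM in knockout wounds. In cluster 6 the values were 163, 664, 89.1 and 1330 CPM in the same order, and in cluster 7 they were 464, 1431, 738 and 2181 CPM. The log2 ratios ran from 1.56 to 3.90. In each library Pparg was highest in cluster 6, with 31.3 CPM (26.4 to 36.9) in wild-type and 34.8 CPM (28.9 to 41.7) in knockout wounds at 5 dpw, against 6.57 and 6.51 CPM at 1 dpw, although its interval in knockout wounds at 5 dpw overlapped that of cluster 7 (30.0 CPM, 22.4 to 39.2). As a fold, Hilpda dropped furthest in the same cluster, from 519.8 to 38.1 CPM in wild-type and from 422 to 54.2 CPM in knockout wounds, and at 5 dpw it remained highest in cluster 3, at 369.6 and 602 CPM.

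**Figure D3:**
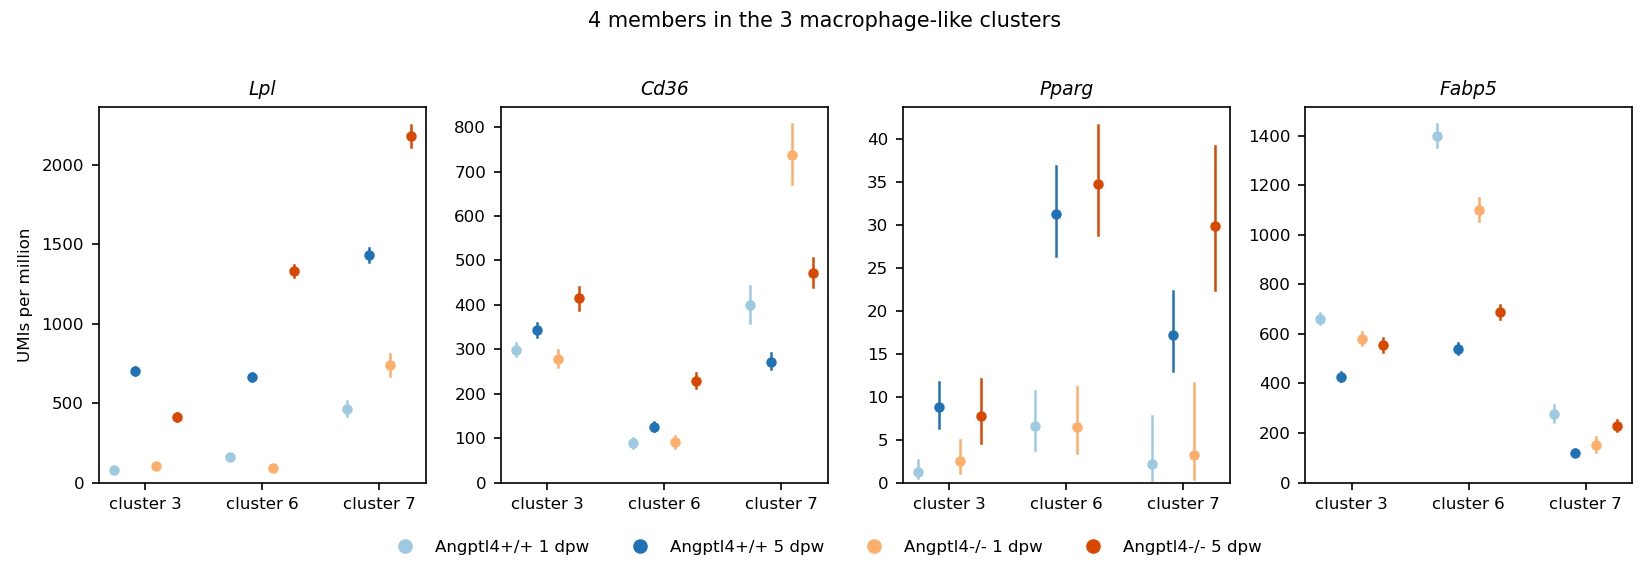
Lpl, Cd36, Pparg and Fabp5 (CPM of the cluster, linear axis from 0) in the 3 macrophage-like clusters, with 1 point per library and exact Poisson 95% intervals. Lpl at 5 dpw is lower in knockout than in wild-type wounds in cluster 3 (412 against 700.2) and higher in cluster 6 (1330 against 664) and cluster 7 (2181 against 1431).

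Other genes that handle lipid in macrophage-like cells also differed between the days. Slc27a4, a fatty acid transport protein, had 49.0 and 16.9 CPM in wild-type wounds at 1 and 5 dpw and 54.8 and 20.9 CPM in knockout wounds. Lipa, the lysosomal lipase, had 97.9 and 274.5 CPM and then 82.3 and 266 CPM. G0s2, an inhibitor of droplet lipolysis, had 235.5 and 52.7 CPM and then 174.5 and 51.0 CPM, and Gpat3, an enzyme of triglyceride synthesis, 90.7 and 37.1 CPM and then 103 and 42.0 CPM. In this class 10.7% of all genes were apart in wild-type and 8.04% in knockout wounds, and with so few genes in a list nothing is read from the following counts against them. Of 13 droplet genes tested in each genotype, 2 were higher and 4 lower at 5 dpw in wild-type wounds and 2 were higher and 3 lower in knockout wounds. Of the oxidation genes, 2 of 18 were higher in wild-type wounds and 1 of 17 in knockout wounds, with none lower. The 3 partners of Lpl that could be tested gave no call, and of 7 PPAR partners (coreceptors and cofactors) 1 was higher in wild-type wounds and none in knockout wounds. Of the uptake genes, 1 was higher and 1 lower of 9 tested in wild-type wounds and of 7 in knockout wounds.

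Fabp5 belonged to the dendritic cell-like class, with 4344 and 3983 CPM in wild-type wounds at 1 and 5 dpw and 3503 and 3026 CPM in knockout wounds. It was 26.5 to 36.8 times as high as in neutrophil-like cells and 4.93 to 10.2 times as high as in macrophage-like cells of the same library. The 4 macrophage-like values ran from 391 to 822 CPM, below all 4 dendritic cell-like values. At a finer resolution of 1.0 the dendritic cell-like class split into a cluster led by Fscn1, Ccl22 and Ccr7, genes of dendritic cells that migrate to lymph nodes, and a cluster led by Siglech and Cd209a. The Ccr7 cluster had 8888, 7627, 8028 and 7346 Fabp5 CPM in wild-type wounds at 1 and 5 dpw and knockout wounds at 1 and 5 dpw. The Siglech cluster had 165, 696, 113 and 642.5 CPM. Fabp4 also lay in the Ccr7 cluster, with 50.5 to 120.5 CPM there and 3 UMIs in all in the Siglech cluster, but few cells carried it. Of the dendritic cell-like cells 10 of 109, 23 of 310, 6 of 88 and 10 of 208 held Fabp4 UMIs, in the same order of libraries. In that class 5 cells held 91.3%, 65.9%, 96.2% and 94.6% of them.

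Plin2 and Hilpda followed each other through the neutrophil-like clusters. Cluster 0, led by Lrg1, Ly6g and Ngp, was lowest for both, with 272 to 342 Plin2 CPM and 122 to 317 Hilpda CPM over the 4 libraries. Cluster 2, led by Csf1, Cldn1 and Rps6ka2, was highest for Plin2, with 1230 to 1446 CPM, and had 1529 to 1970 Hilpda CPM. No library of cluster 0 reached the level of any library of cluster 2 for either gene. Between the genotypes Hilpda was 2-fold apart in 1 of these clusters, cluster 8, led by the inflammatory genes Csf3 and Il1a, with 1614 CPM in wild-type and 734 CPM in knockout wounds at 5 dpw. Its log2 ratio there was -1.14 (-1.29 to -0.99), on 174 wild-type and 220 knockout cells. The share of all genes apart was not counted within clusters, so nothing is read from this single call. At 1 dpw that cluster had 1578 and 1255 CPM. Over the 14 clusters, each the mean of 4 libraries, Plin2 and Hilpda had a Pearson correlation of 0.90, given as a description because the clusters share the libraries.

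**Figure D4:**
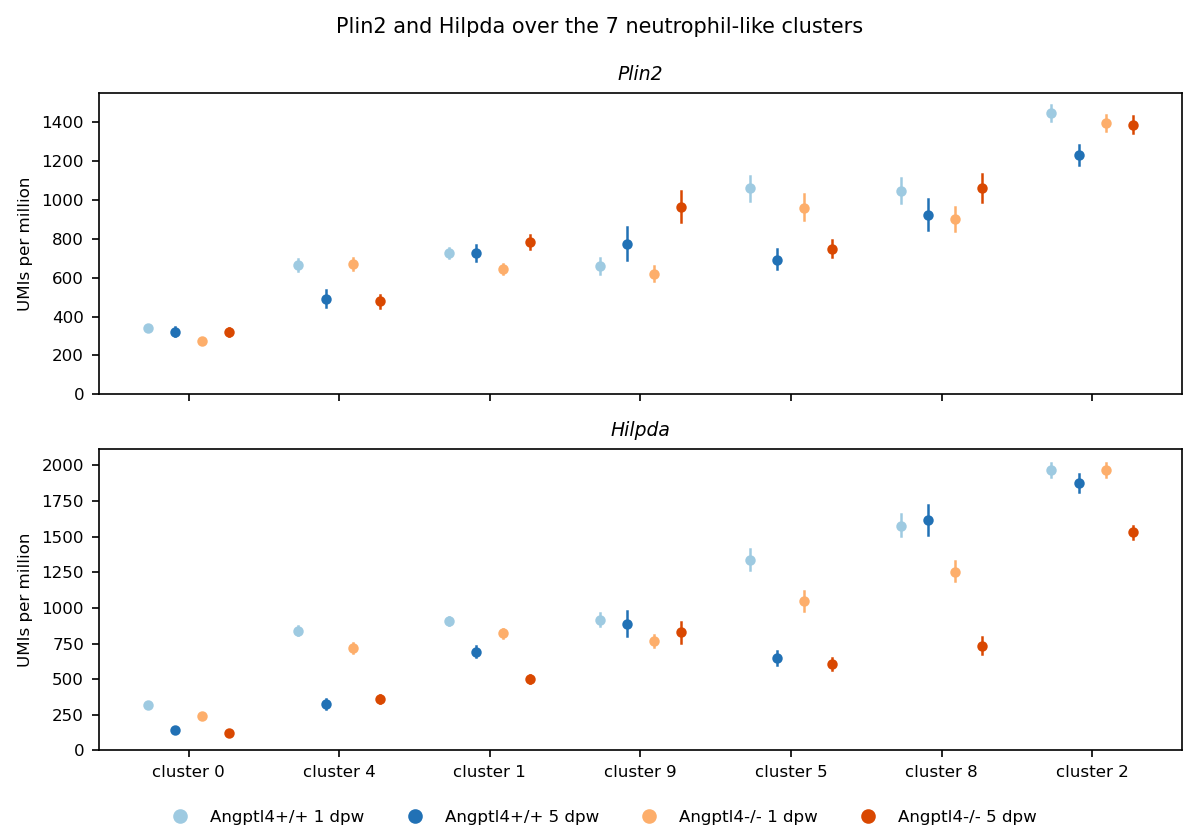
Plin2 and Hilpda (CPM of the cluster, linear axes from 0) in the 7 neutrophil-like clusters, with 1 point per library and exact Poisson 95% intervals. In cluster 0 Plin2 lies between 272 and 342 and Hilpda between 122 and 317, and in cluster 2 between 1230 and 1446 and between 1529 and 1970.

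The promoters of this pair are shown because the 2 genes followed each other through the neutrophil-like clusters. In some comparisons of genotypes or days the 2 genes parted. Hilpda is also known as a target of hypoxia-inducible factors, which bind around the letters ACGTG. RefSeq promoters of GRCm38.p6 (250 bases before to 50 after the start) matched 6 of the 10 genes by symbol. The letters ACGTG on either strand occur in 19.6% of the 32851 promoters of that length, and in those of Plin2, Ppard and 1 of 2 for Hilpda. The 30 bases around the match, at chr4:86670045-86670074 on the minus strand for Plin2 and at chr6:29272571-29272600 on the plus strand for Hilpda, read as follows from 5′ to 3′, with the matched letters in capitals.
Plin2: agctgggctatcACGTGgctcggaggcttg
Hilpda: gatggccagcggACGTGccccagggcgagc
The match begins 3 bases before the start of Plin2, where it overlaps the same letters on the other strand, and 43 bases before the second of 2 RefSeq starts of Hilpda, which lies within the gene span given above. The strict consensus of the PPAR response element, a direct repeat with a spacer of 1 base, occurs in 0.0396% of promoters and in none of the 6 genes' windows. A match describes letters and not binding.

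The genes whose level over the 14 clusters was most like each member, out of genes with at least 1000 UMIs, were found by Pearson correlation of log2(CPM + 1). For Lpl these were Sept8 (0.981), Tmem37 (0.980) and Steap3 (0.978), and for Cd36 they were Msr1 (0.959), a scavenger receptor, Ctnnd1 (0.948) and Cav2 (0.945). Pparg was closest to Dse (0.977), Nxpe5 (0.975) and Cln8 (0.974), and Fabp5 to Stk38l (0.932), Myl12a (0.913) and Etv6 (0.909). For Plin2 the list was Sdcbp (0.973) and Cdc42ep4 (0.965), and for Hilpda it was Ero1l (0.970), Ptpn23 (0.968) and Il1rn (0.966). Fabp4 was closest to Zfp385a (0.952), Ppfia4 (0.914) and Amz1 (0.908), and Cpt1a to Dram2 (0.963), Tspan14 (0.962) and Foxj2 (0.952). Ppard came next to Upp1 (0.961), Srgn (0.953) and Tmco6 (0.952), and Angptl4, on 125 UMIs in all, next to Gpnmb (0.871) and Mgat5 (0.865). Among the members themselves Lpl correlated with Pparg at 0.94 and with Cd36 at 0.91.

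The comparison of knockout with wild-type wounds asked whether losing Angptl4 changed these genes in the immune cells. In macrophage-like cells no member was 2-fold apart, 0 of 7 tested at 1 dpw against 0.715% of all genes, and 0 of 9 at 5 dpw against 1.16%. At 1 dpw the largest differences were Ppard at -0.61 (-0.93 to -0.30) and Hilpda at -0.43 (-0.49 to -0.38) on the log2 scale. At 5 dpw Fabp4 stood at 0.91 (0.55 to 1.27), Lpl at 0.50 (0.46 to 0.54), Cd36 at 0.47 (0.40 to 0.55), Fabp5 at 0.46 (0.40 to 0.52), Hilpda at 0.45 (0.36 to 0.54) and Pparg at 0.41 (0.12 to 0.68). Cpt1a lay at -0.27 (-0.41 to -0.12) and the median of all genes at -0.02. Ppard is the member on the chromosome of the targeted gene, and the part of that position in its ratios was not tested. Its other ratios were -0.22 in macrophage-like cells at 5 dpw, -0.12 and 0.31 in neutrophil-like cells at 1 and 5 dpw, and 0.21 in dendritic cell-like cells at 5 dpw.

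Within the macrophage-like clusters the genotypes differed in opposite directions for Lpl at 5 dpw. The log2 ratio of knockout to wild-type wounds was -0.77 (-0.87 to -0.66) in cluster 3, 1.00 (0.94 to 1.07) in cluster 6 and 0.61 (0.55 to 0.67) in cluster 7. At 1 dpw the order differed, with 0.40 (0.19 to 0.60), -0.87 (-1.13 to -0.61) and 0.67 (0.47 to 0.86). Few cells weighed on those 1 dpw values: of the macrophage-like Lpl UMIs in knockout wounds, 1 cell held 24.4% and 5 cells held 43.0%. In wild-type wounds 5 cells held 36.9%. The part of single cells in these ratios was not tested. Cd36 at 5 dpw was higher in knockout wounds in all 3 clusters, by 0.27, 0.87 and 0.79. Hilpda at 5 dpw gave 0.70, 0.51 and 0.61 and Fabp5 0.38, 0.35 and 0.91.

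In monocyte-like cells 2 of 5 members were called at 1 dpw, against 0.746% of all genes, and 1 of 7 at 5 dpw, against 0.683%, and all were lower in knockout wounds. Each called member reached the count threshold mainly through its wild-type count, which already leaned towards a difference. Hilpda had 79.2 CPM in wild-type and 28.1 CPM in knockout wounds at 1 dpw, and the log2 ratio was -1.50 (-1.98 to -1.04). At 5 dpw it had 64.4 and 28.3 CPM, a ratio of -1.19 (-1.77 to -0.63). Lpl gave -1.31 (-1.78 to -0.86) at 1 dpw, and at 5 dpw, with 88.9 and 44.5 CPM, it fell just short of 2-fold (interval -1.46 to -0.54). The class held 125 to 154 cells in each library, and 5 cells carried 57.1% to 92.5% of the Hilpda UMIs and 42.7% to 68.1% of the Lpl UMIs. At 1 dpw Hilpda moved to -0.74 without likely doublets, and at 5 dpw it turned to 0.56 with clusters at resolution 1.0, where a further cluster led by Vcan and Chil3 joined the class. Fabp5 was higher in knockout monocyte-like cells at 1 dpw by 0.87 (0.59 to 1.16).

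**Figure D5:**
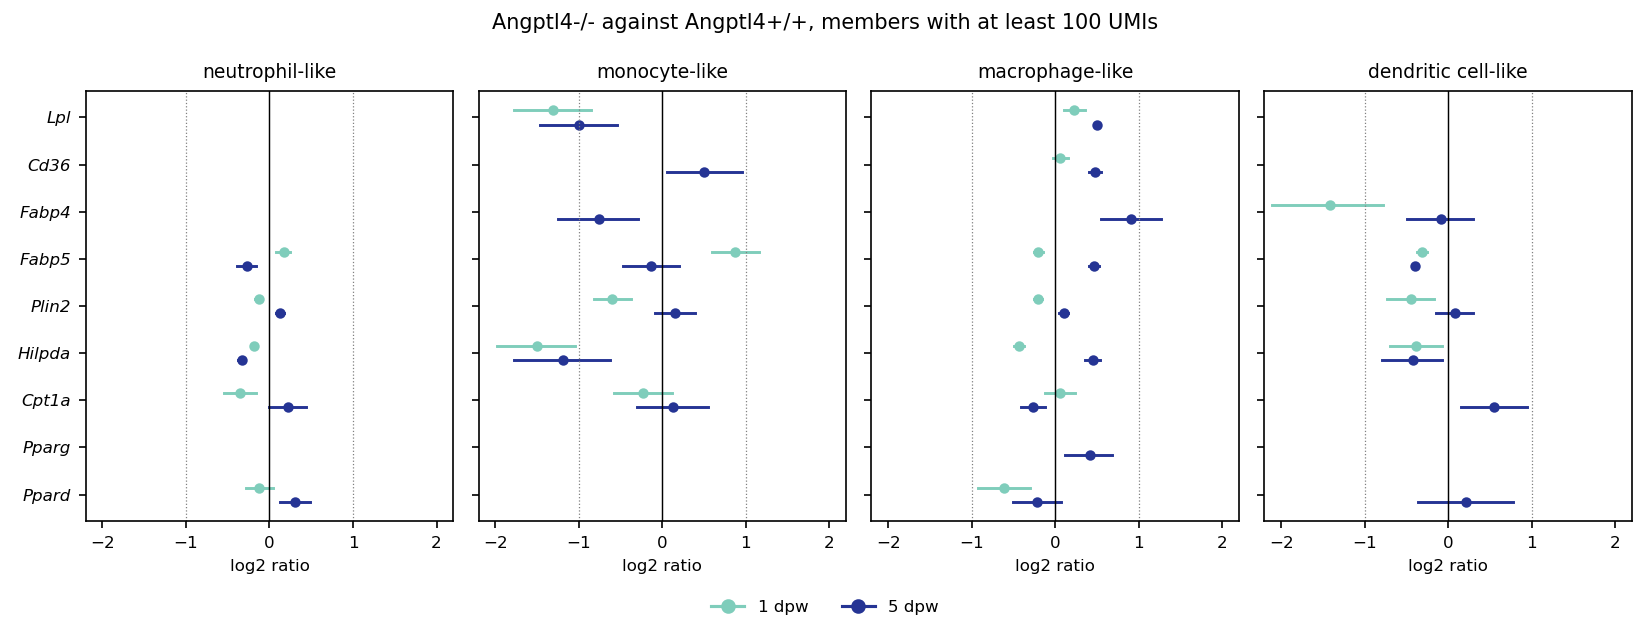
Log2 ratio of knockout to wild-type wounds for each gene in 4 cell classes at 1 dpw (light) and 5 dpw (dark), with exact 95% intervals for counting error. Only genes with at least 100 UMIs in the 2 sums are drawn, and dotted lines mark 2-fold. Hilpda and Lpl in monocyte-like cells and Fabp4 in dendritic cell-like cells at 1 dpw reach beyond or lie at the left dotted line. No point reaches the right dotted line, but the intervals of Fabp5 in monocyte-like cells at 1 dpw and Fabp4 in macrophage-like cells at 5 dpw cross it.

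In dendritic cell-like cells 1 of 4 members was called at 1 dpw, against 1.4% of all genes, and 0 of 6 at 5 dpw, against 1.49%. The call was Fabp4, with 92 UMIs in wild-type and 26 in knockout wounds, a ratio of -1.42 (-2.11 to -0.78), and 5 cells held 91.3% and 96.2% of those UMIs. Here too the count threshold was reached mainly through the wild-type count, which already leaned towards a difference. Fabp5 was lower in knockout wounds by 0.31 (interval of the log2 ratio -0.37 to -0.25) at 1 dpw and by 0.40 (-0.43 to -0.36) at 5 dpw. Within the Ccr7 cluster the log2 ratios were -0.15 and -0.05, and within the Siglech cluster -0.55 (-0.97 to -0.13) and -0.12 (-0.23 to -0.01). The Ccr7 cluster held 156 cells in wild-type wounds at 5 dpw and 82 in knockout wounds, beside 152 and 125 of the Siglech cluster. At 1 dpw the Ccr7 cluster held 55 and 42 cells and the Siglech cluster 55 and 44. The part of these cell numbers in the Fabp5 difference of the class was not tested.

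In neutrophil-like cells no member was called, 0 of 5 at 1 dpw against 0.958% of all genes and 0 of 5 at 5 dpw against 0.998%. Hilpda was lower in knockout wounds on both days, at -0.18 (-0.21 to -0.15) and -0.33 (-0.38 to -0.29), with the median of all genes at -0.09 and -0.07. Plin2 lay at -0.13 and 0.13 and Cpt1a at -0.35 and 0.22. Among the further genes of the pathways, no gene was 2-fold apart in the same direction on both days in any of the 4 classes. Of 13 genes of uptake and activation, 9 could be compared in macrophage-like cells at 5 dpw and 1 was lower in knockout wounds, with a median log2 ratio of 0.01, against 1.16% of all genes apart. In dendritic cell-like cells 1 of 7 droplet genes was higher at 1 dpw, against 1.4%, and 1 of 15 oxidation genes was higher at 5 dpw, against 1.49%. The lists gave no other call between the genotypes in the 4 classes.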

How the data were processed

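Live CD45+ cells of skin wounds were profiled by droplet 3' sequencing, with 1 library for each genotype and day. Per the submitters' processing notes and the study's methods, the authors made the deposited UMI counts per gene and barcode with Cell Ranger 3.1.0 on mm10, and they analysed them in Seurat 3.0. No gene-level normalisation had been applied to the deposited counts.

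Of 20069 barcodes, 19827 passed the filter (at least 200 detected genes and at most 10% mitochondrial UMIs), and 19825 were analysed. Likely doublets (203 to 279 per library, Scrublet in scanpy 1.11.5) were kept. Cells were integrated and clustered in R 4.3.3 with Seurat 5.3.0 (2000 variable genes, 30 dimensions, resolution 0.5). In all, 85 genes were left out of the clustering, among them the 10 genes and the pathway genes. The markers of the classes were not left out. Clusters were joined into classes by marker lists. UMIs were summed per class and library, and intervals came from scipy 1.17.1 and cover counting error only. Depth was 26981596 to 32962595 UMIs per library. Columns of unknown samples numbered 0.

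With 1 library in a group no test was run. A pair of levels were called apart when their sums held at least 100 UMIs and differed at least 2-fold, a rule checked on simulated data. The simulated sums varied by counting error only, so that check cannot speak to spread between cells, mice or libraries. A count of 0 was replaced by a floor of 3 UMIs per library. Named were all members, up to 3 genes of each pathway list that were 2-fold apart in the same direction on both days or in both genotypes, and the 3 genes most like each member over the clusters. Some of these are not reported here. The members and lists were chosen with earlier results of these data known. The alternatives were a stricter cell filter, doublets left out, a scale without the 50 genes with most UMIs, cells thinned to 1000 UMIs, every cell weighted alike, resolution 1.0, no integration and at least 20 UMIs, together with 2 chosen after seeing the data, namely leaving out the 5 cells with most UMIs of a gene and counting Angptl4 in all barcodes. The 2 cells set apart were also chosen after seeing the data.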

Additional observations from a re-analysis of the deposited data

Results flagged for a closer look

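For 3 genes the Angptl4-/- to Angptl4+/+ log2 ratio had opposite signs at 1 and 5 dpw within a cell class, with at least 100 UMIs on each day and both counting intervals clear of 0. Cpt1a and Ppard also had opposite signs in some classes, but with at least 1 interval that holds 0, and Fabp4 did in macrophage-like cells with 49 UMIs at 1 dpw. The difference between the days was not tested, because each group is 1 library. Fabp5, the fatty acid binding protein, stood at 0.17 and -0.27 in neutrophil-like cells and at -0.21 and 0.46 in macrophage-like cells. Plin2, the droplet coat protein, stood at -0.13 and 0.13 in neutrophil-like cells and at -0.21 and 0.10 in macrophage-like cells. Hilpda, the inhibitor of droplet lipolysis, stood at -0.43 and 0.45 in macrophage-like cells. All of these ratios were under 2-fold. The median of all genes at 1 and 5 dpw was -0.09 and -0.07 in neutrophil-like cells and 0.02 and -0.02 in macrophage-like cells. The share of all genes that meet this rule was not counted, so nothing is read from the number of members that do.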

How the results depend on the processing

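Between the genotypes the members gave 4 calls over the 4 classes and both days, and between the days 13 calls. Some members were called more than 1 time. After thinning to 1000 UMIs the counts were 0 and 4, where fewer UMIs lower the number of genes that can be compared by construction. The ratios changed as well: of the 17 called, 2 stayed the same under thinning, 13 moved and 2 reversed, and 5 were under 2-fold. With at least 20 UMIs the counts of calls were 12 and 22, and without the 5 cells holding most UMIs of a gene they were 2 and 8. Under the other alternatives both counts stayed within 1.5 times, and the 8 calls between classes did so under all. Of the 17 called ratios, 3 reversed: Hilpda in monocyte-like cells between genotypes at 5 dpw became 0.56 at resolution 1.0, and with thinned cells Fabp4 in macrophage-like cells of wild-type wounds between the days became -0.72 and Hilpda in dendritic cell-like cells of knockout wounds became 0.17. The cause was not tested. The ratios of Lpl between the days in macrophage-like cells ran from 2.11 to 3.16 in wild-type wounds and from 1.89 to 3.54 in knockout wounds among the alternatives that moved them. No paired analysis was possible because each group has 1 library. Depth limited Angptl4 and Pparg most, and the spread between mice cannot be estimated.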

Other observations

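Lpl in NK cell/T cell-like cells came from few cells. In knockout wounds at 5 dpw 1 cell held 189 of the 227 UMIs, and in wild-type wounds at 1 dpw 1 cell held all 9. Barcodes that failed the filter held 136 and 394 UMIs of the 10 genes in wild-type wounds at 1 and 5 dpw, and 16 and 112 in knockout wounds. Counted over all deposited barcodes, Angptl4 had 47 and 81 UMIs in wild-type wounds and 0 in both knockout libraries.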
